A study of Mus musculus with 6 samples.

Results

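The 8 genes described here encode the enzymes that strip fatty acids from stored triglyceride and the proteins that set their pace: the lipases Pnpla2, Lipe and Mgll, the coactivator Abhd5, the inhibitors G0s2 and Hilpda, the phosphodiesterase Pde3b and the glycerol channel Aqp7. They were taken by symbol from a table of 22040 mouse genes, and all 8 were matched to an Ensembl identifier and passed the filter on low counts. The tissue was white adipose tissue from mice. The control group received saline by intraperitoneal injection (n = 3 samples), and the Rb1 group received ginsenoside Rb1, a triterpene saponin of ginseng, by the same route at 14 mg/kg per day (n = 3). The labels give no strain, age, sex, diet, fat depot or length of treatment, and do not say whether a sample is 1 mouse or a pool. The study set out to look at Rb1 in obesity, and here the question is how transcripts of the lipolytic machinery compare between Rb1 and saline.

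Fat cells break triglyceride down in a chain. Adipose triglyceride lipase (ATGL, from Pnpla2) removes the first fatty acid, hormone-sensitive lipase (HSL, from Lipe) acts mainly on the diglyceride that is left, and monoglyceride lipase (from Mgll) releases glycerol, which leaves the cell through aquaporin 7 (Aqp7). ATGL needs its coactivator CGI-58 (Abhd5) and is held back by the small proteins G0S2 (G0s2) and HILPDA (Hilpda). Catecholamines start the chain through beta-adrenergic receptors and cyclic AMP, and insulin slows it in part through PDE3B (Pde3b), which breaks cyclic AMP down. Much of this control acts on the proteins, through phosphorylation and binding, and transcript counts do not show it.

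Libraries held 15440339 to 24501446 counts. The 8 genes together took 0.508% to 0.606% of the counts in controls and 0.670% to 0.725% with Rb1. The tissue label was checked against 11 markers of mature adipocytes, none of which was at 0 in any sample. Their summed level was 5631 to 6637 FPKM in controls and 6264 to 7213 FPKM with Rb1, so the groups overlapped. FPKM is the count divided by gene length in kilobases and scaled to the library total. Control replicate 2 stood apart: its 15 skeletal muscle markers summed to 10768 FPKM, against 161 and 163 in the other controls and 16.9 to 64.4 with Rb1. Summed macrophage markers (10 genes) were 970 to 1271 FPKM in controls and 615 to 859 with Rb1, and 5 erythroid markers summed to 226 to 386 FPKM in controls and 388 to 615 with Rb1. The summed levels of the muscle, macrophage and erythroid markers did not overlap between the groups. For muscle this held without control replicate 2 as well, where the median log2 fold change of its markers was -2.20. The part of these cells in the results below was not tested. In bulk tissue, fewer cells of a type and less RNA per cell cannot be told apart.

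Pnpla2, Lipe, Pde3b and Aqp7 were higher in every Rb1 sample than in any control, Hilpda was lower in every Rb1 sample, and Mgll, Abhd5 and G0s2 overlapped between the groups. None of the 8 passed edgeR's quasi-likelihood test at an adjusted p of 0.05 over the 14093 genes tested, where 0.0071% of genes did. Groups that did not overlap and were higher with Rb1 made up 5.48% of genes tested, against 4 of the 8, and lower ones made up 10.5%, against 1 of the 8. In either direction this was 5 of the 8 against 16.0% of genes. The 8 were chosen with earlier results of these data known, so such counts only describe them. Without control replicate 2 the groups were again apart for 5 of the 8, against 23.6% of genes, with 4 of them higher, against 8.56%. The median log2 fold change of the 8 was 0.30, and that of all genes tested was 0.01. The 11 mature adipocyte markers had a median of 0.27, close to that of the 8. Of these markers 7 were positive, with values from -0.33 to 1.39. Of the 8 genes 6 were positive, with values from -1.05 to 0.66. The part of adipocyte content in these values was not tested. At an unadjusted p under 0.05 there were 4 of the 8 on the higher side, against 4.01% of genes, and 1 on the lower side, against 7.54%. That 4 became 1 without control replicate 1 or with libraries scaled to adipocyte markers. It became 2 without Rb1 replicate 2 or without Rb1 replicate 3, and 3 without control replicate 2. The 1 on the lower side became 0 without control replicate 1 and 2 with the adipocyte scaling. Over all genes and in either direction, 1628 of 14093 had such a p with all samples and 1526 of 14093 with that scaling. This was 1159 of 14266 without control replicate 1 and 1183 of 14216 without control replicate 2. It was 1321 of 14322 without Rb1 replicate 2 and 1214 of 14311 without Rb1 replicate 3. DESeq2, run beside edgeR, called 1 of the 8 (Aqp7) higher, against 0.593% of genes, and 0 lower, against 2.19% (2.79% in either direction).

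**Figure D1:**
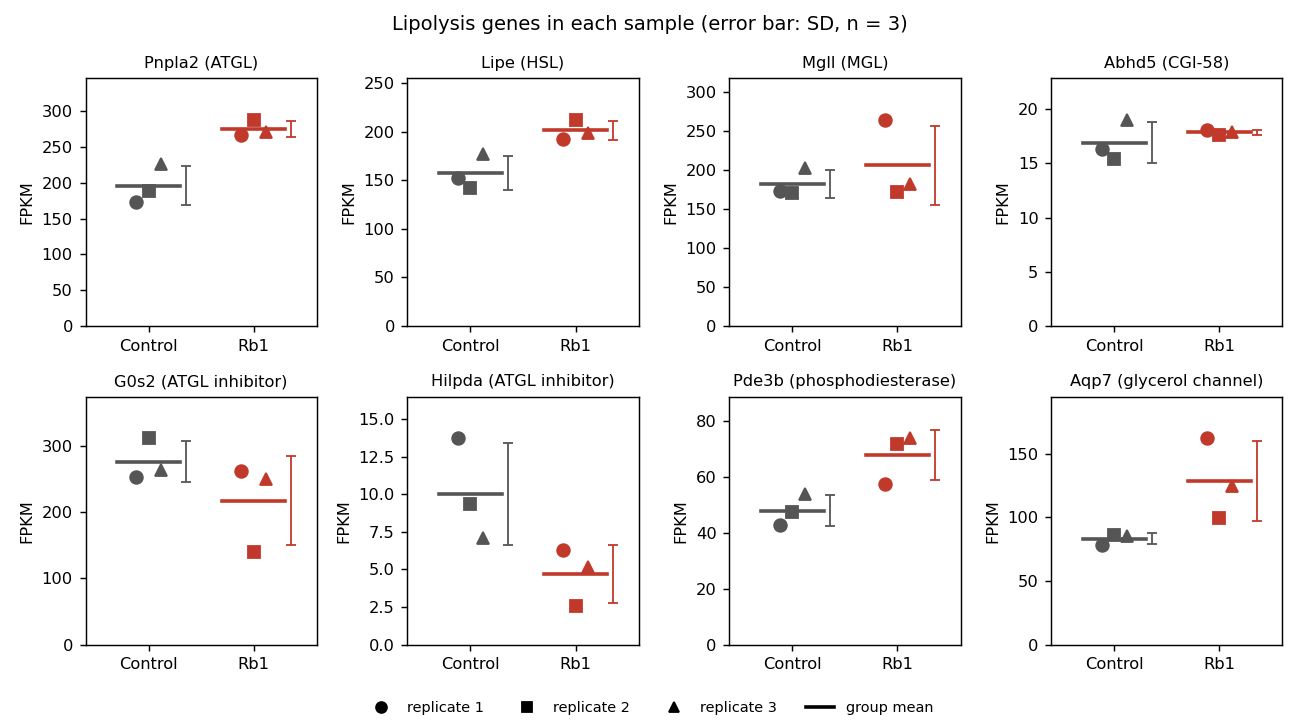
Deposited FPKM (y axes, each starting at 0) of the 8 genes in every control and Rb1 sample; points are samples, horizontal bars the group means and error bars the SD (n = 3). The groups are apart for Pnpla2, Lipe, Pde3b, Aqp7 and Hilpda and overlap for Mgll, Abhd5 and G0s2.

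Pnpla2, the gene of the lipase that opens the chain, stood at 173, 188 and 226 FPKM in control replicates 1, 2 and 3 and at 266, 288 and 271 in Rb1 replicates 1, 2 and 3. All 3 Rb1 samples lay above the highest control, and they lay closer together than the controls did. The means were 196 ± 27.3 and 275 ± 11.4 FPKM (SD, n = 3 each). The fold change was 1.44, with a 95% interval of 1.11 to 1.88 (log2 fold change 0.53, SE 0.16, edgeR adjusted p = 0.309). DESeq2 put Pnpla2 on the border of its threshold, at an adjusted p of 0.0505 with the same expression filter as edgeR and 0.0484 with none. The gene (ENSMUSG00000025509) spans chr7:141455198-141460743 in GRCm38, plus strand, and no other annotated gene shares its exons.

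Lipe, the gene of hormone-sensitive lipase, stood at 153, 142 and 177 FPKM in controls and at 193, 212 and 199 with Rb1. The groups did not overlap, but the lowest Rb1 sample was near the highest control. The means were 157 ± 17.6 and 201 ± 10.05 FPKM (SD, n = 3 each), a fold change of 1.32 with an interval of 1.03 to 1.69 (log2 fold change 0.40, SE 0.15, edgeR adjusted p = 0.392). Lipe (ENSMUSG00000003123) spans chr7:25379527-25398710, minus strand. Of its exon bases, 15.6% are also exon of 4732471J01Rik on the other strand, and without a stated strand setting reads there cannot be told apart. The gene has more than 1 start site, and a count per gene does not separate the transcripts.

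Mgll, which supplies the last lipase of the chain, stood at 173, 170 and 202 FPKM in controls and at 264, 172 and 182 with Rb1. Only Rb1 replicate 1 lay above the controls, and the other Rb1 samples lay inside their range. The means were 182 ± 17.5 and 206 ± 50.8 FPKM (SD, n = 3 each), and the fold change was 1.16 with an interval of 0.863 to 1.55 (edgeR adjusted p = 0.717). Without Rb1 replicate 1 the log2 fold change went from 0.21 to 0.042. Mgll (ENSMUSG00000033174) spans chr6:88724412-88828360, plus strand, and 3.29% of its exon bases are shared with Gm26588 on the other strand.

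Abhd5, the coactivator that ATGL needs for full activity, was the member with the smallest fitted difference. It stood at 16.4, 15.4 and 19.0 FPKM in controls and at 18.0, 17.6 and 17.9 with Rb1. All 3 Rb1 samples lay within the range of the controls. The means were 16.9 ± 1.90 and 17.9 ± 0.211 FPKM (SD, n = 3 each), and the fold change was 1.08 with an interval of 0.889 to 1.32 (edgeR adjusted p = 0.779). Its sign depended on the scaling: the log2 fold change was 0.12 with TMM, edgeR's default scaling, and -0.013 when libraries were scaled to the adipocyte markers, a scaling under which the median of all genes was -0.13. It was also 0.067 without control replicate 1, 0.058 without control replicate 2 and 0.23 without control replicate 3. Abhd5 (ENSMUSG00000032540) spans chr9:122351608-122381524, plus strand, and shares 15.9% of its exon bases with A730085K08Rik on the other strand.

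G0s2 encodes the main inhibitor of ATGL in fat cells. Its level was 252, 311 and 263 FPKM in controls and 262, 139 and 249 with Rb1. Rb1 replicate 2 was low, at 139 FPKM, and the other Rb1 samples lay beside the controls. The means were 276 ± 31.2 and 217 ± 67.4 FPKM (SD, n = 3 each), a fold change of 0.805 with an interval of 0.549 to 1.18 (log2 fold change -0.31, edgeR adjusted p = 0.670). Without Rb1 replicate 2 the log2 fold change was -0.095. G0s2 (ENSMUSG00000009633) spans chr1:193272161-193273217, minus strand, with no shared exon.

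Hilpda, the gene of a lipid droplet protein that inhibits ATGL and is known to be induced by low oxygen and by fatty acids, had the largest fold difference of the 8 and the lowest level. It stood at 13.7, 9.34 and 7.07 FPKM in controls and at 6.30, 2.57 and 5.18 with Rb1. The lowest control and the highest Rb1 sample were close, and the spread inside each group was wide. The counts behind these levels were 431, 360 and 234 in controls and 209, 65 and 208 with Rb1. The means were 10.05 ± 3.39 and 4.68 ± 1.92 FPKM (SD, n = 3 each), a fold change of 0.482 with an interval of 0.274 to 0.846 (log2 fold change -1.05, SE 0.34, edgeR adjusted p = 0.318, DESeq2 adjusted p = 0.0836). Hilpda (ENSMUSG00000043421) spans chr6:29272488-29275446, plus strand, with no shared exon.

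Pde3b, whose product lowers cyclic AMP and so opposes lipolysis, was on the same side as the first 2 lipases. Its level was 42.6, 47.5 and 53.7 FPKM in controls and 57.6, 71.9 and 73.8 with Rb1. The groups did not overlap, with Rb1 replicate 1 close to control replicate 3. The means were 47.9 ± 5.54 and 67.7 ± 8.88 FPKM (SD, n = 3 each), a fold change of 1.46 with an interval of 1.08 to 1.96 (log2 fold change 0.54, SE 0.18, edgeR adjusted p = 0.329, DESeq2 adjusted p = 0.102). Pde3b (ENSMUSG00000030671) spans chr7:114415281-114539251, plus strand, with no shared exon.

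Aqp7, the channel through which glycerol leaves the fat cell, had the smallest p of the 8. It stood at 78.1, 86.0 and 85.4 FPKM in controls and at 162, 99.6 and 124 with Rb1. The controls lay close together, while the Rb1 samples were all higher and spread widely. The means were 83.2 ± 4.43 and 129 ± 31.4 FPKM (SD, n = 3 each), a fold change of 1.58 with an interval of 1.20 to 2.08 (log2 fold change 0.66, SE 0.17, edgeR adjusted p = 0.247). DESeq2 called it higher (adjusted p = 0.0164), and without control replicate 2 that call was lost (0.0899). Aqp7 (ENSMUSG00000028427) spans chr4:41033074-41048139, minus strand, with no shared exon. It is also expressed by capillary endothelium in fat, and the summed level of 7 endothelial markers was 236 to 281 FPKM in controls and 234 to 412 with Rb1, highest in Rb1 replicate 1, where Aqp7 was highest too; the part of these cells in the Aqp7 value was not tested.

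**Figure D2:**
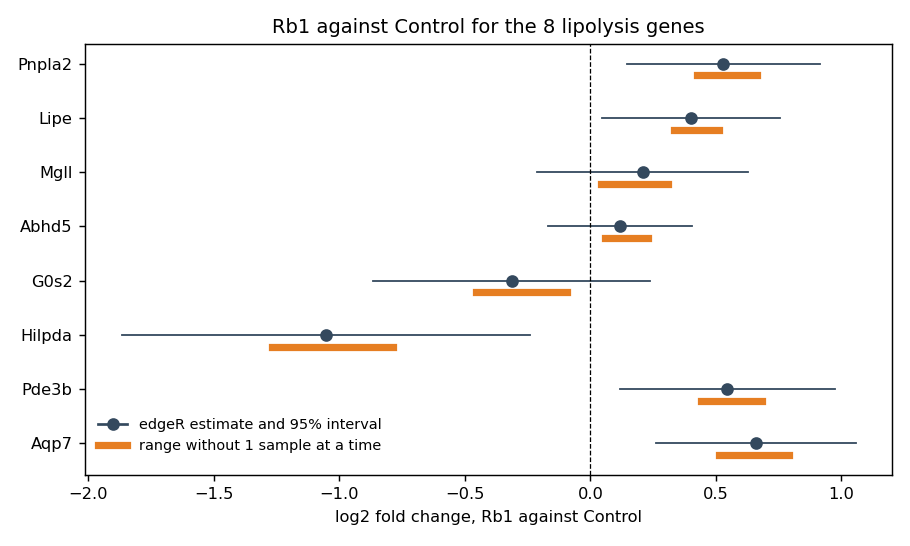
Log2 fold change of Rb1 against control (x axis) for the 8 genes; dots and thin lines are the edgeR estimate and its 95% interval, and thick bars the range when 1 sample at a time is left out. The intervals of Pnpla2, Lipe, Pde3b and Aqp7 lie above 0 and that of Hilpda below 0, while none of the 8 passed after adjustment over all genes.

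The DNA before the start sites is shown for the members with the smallest p on each side, Aqp7 and Pnpla2 among the higher ones and Hilpda as the lower one. RefSeq promoter windows on GRCm38.p6, from 250 bases before to 50 after a start site, were matched for 7 of the 8 genes (11 windows, since some genes have more than 1 start). They were searched on both strands for AGGTCA, the core hexamer of nuclear receptor sites such as those of PPAR-gamma, for the direct repeat of that hexamer with 1 base between (DR1), for ACGTG and GCGTG, the core of hypoxia response elements, for CACGTG, the E-box that contains ACGTG on both strands, for GTAAACA, the forkhead motif, and for TGACGTCA, the full cyclic AMP response element. The printed stretches run 5′ to 3′ on the strand of the gene, and capitals mark matches. The Pnpla2 stretch is chr7:141454938-141455187 on the plus strand, the Aqp7 stretch is chr4:41048137-41048386 on the minus strand, and the Hilpda stretches are chr6:29272505-29272529 and chr6:29272573-29272597 on the plus strand.
Pnpla2 promoter: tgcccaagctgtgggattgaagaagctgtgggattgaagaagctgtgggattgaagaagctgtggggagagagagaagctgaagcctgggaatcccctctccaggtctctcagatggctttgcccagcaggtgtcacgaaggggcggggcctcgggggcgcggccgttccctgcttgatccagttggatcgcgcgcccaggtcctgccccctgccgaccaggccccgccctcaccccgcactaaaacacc
Aqp7 promoter: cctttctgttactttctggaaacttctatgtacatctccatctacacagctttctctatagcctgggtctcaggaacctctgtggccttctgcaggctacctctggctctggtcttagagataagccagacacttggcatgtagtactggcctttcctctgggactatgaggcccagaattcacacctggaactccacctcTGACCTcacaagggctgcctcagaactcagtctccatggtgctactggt
Hilpda, 1st site: accgcgagccGCGTGctttccgtga
Hilpda, 2nd site: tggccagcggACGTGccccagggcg

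The Pnpla2 stretch, 63.2% G and C, held none of the motifs. The Aqp7 stretch, 50.8% G and C, held 1 AGGTCA, on the opposite strand and so printed as its complement, at position -49 from the start site; 16.3% of all 32851 windows in the table hold one. The Hilpda sites are at positions -111 and -43 from its second RefSeq start, and the window there held another GCGTG at -8. The window of its first start held a GCGTG at position 27 and no other match. ACGTG occurs in 19.6% and GCGTG in 32.4% of all windows. In the windows of the other genes, ACGTG or GCGTG was found for Mgll, Lipe, G0s2 and Abhd5, AGGTCA for Abhd5, and CACGTG and GTAAACA for Mgll and Lipe. The window of a second Aqp7 start held the same AGGTCA and another at position -101. CACGTG occurs in 7.15% and GTAAACA in 3.65% of all windows. No window of these genes held DR1 or TGACGTCA, which occur in only 0.0396% and 1.79% of all windows. Their absence from 11 windows therefore shows nothing particular to these genes. These matches describe letters and were not tied to the measured levels.

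Within each sample, the transcripts that act on ATGL were set against Pnpla2. A ratio inside a library does not depend on its depth, and gene length cancels in the comparison of groups. Of 5 ratios, 4 did not overlap between the groups, each with an exact two-sided permutation p of 0.1 (with 3 samples in each group no smaller value exists), and 0.125 after Benjamini-Hochberg adjustment over the 5. So this design cannot take any of them past 0.05. The 4 share Pnpla2 as denominator, which was itself higher in every Rb1 sample, and 52.9% of the other genes tested were lower against Pnpla2 with Rb1 without overlap. These ratios therefore describe the samples and show nothing particular to the 4 genes.

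G0s2 to Pnpla2 was 1.46, 1.66 and 1.16 (ratio of FPKM) in controls and 0.984, 0.484 and 0.921 with Rb1. On the deposited FPKM scale all 3 controls had a ratio above 1 and all 3 Rb1 samples a ratio below it. Where a ratio lies against 1 depends on the gene lengths used. Scaled to the union of annotated exons instead, G0s2 was below Pnpla2 in controls too (means 276 and 453). The ratio with Rb1 was 0.538 times that in controls (geometric means), and the log2 difference of -0.89 became -0.57 without Rb1 replicate 2. Hilpda to Pnpla2 was 7.94%, 4.97% and 3.13% in controls and 2.37%, 0.892% and 1.91% with Rb1, or 0.320 times the control ratio. Abhd5 to Pnpla2 was 9.45%, 8.18% and 8.42% in controls and 6.78%, 6.12% and 6.61% with Rb1, or 0.750 times. Among these, Abhd5 and G0s2 overlapped between the groups in their own levels.

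Lipe to Pnpla2 was 0.881, 0.756 and 0.781 in controls and 0.723, 0.737 and 0.735 with Rb1. The groups were apart by a narrow margin, with a ratio 0.910 times that of controls. Mgll to Lipe was 1.14, 1.20 and 1.15 in controls and 1.37, 0.809 and 0.915 with Rb1, and the groups overlapped (exact permutation p = 0.4 for a log2 difference of -0.21). Here Rb1 replicate 1 lay above and the other Rb1 samples below all controls.

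**Figure D3:**
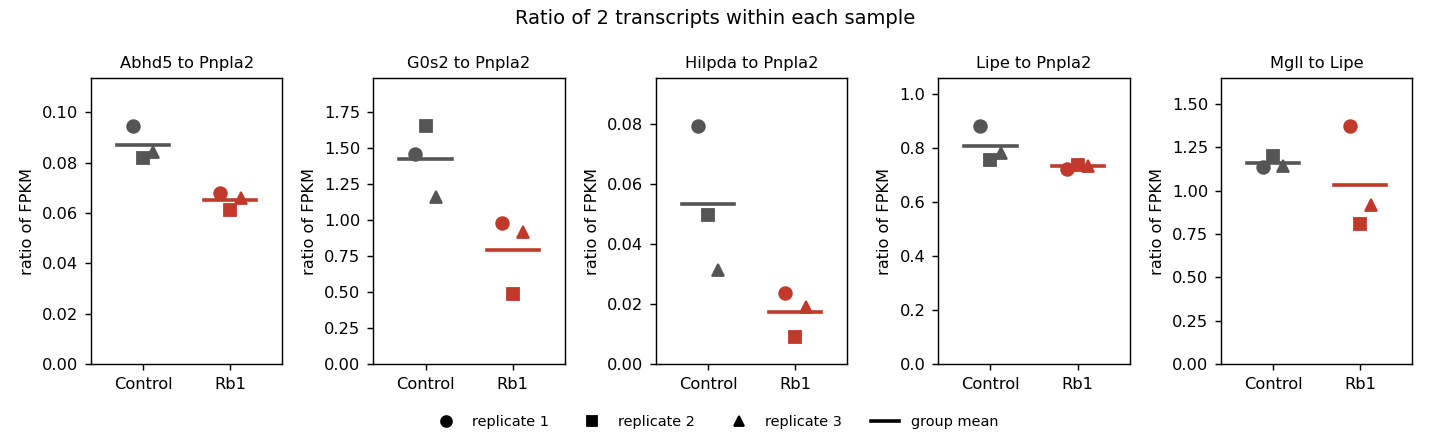
Ratio of the FPKM of 2 transcripts within each sample (y axes start at 0) for control and Rb1; points are samples and bars group means (n = 3). Abhd5, G0s2, Hilpda and Lipe were all lower against Pnpla2 with Rb1 without overlap, and Mgll to Lipe overlapped.

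The order of the genes by level depended on the gene length used. The deposited FPKM of Pnpla2 rests on a length of 6.99 kb, while the union of its exons in GENCODE M21 is 3.02 kb, and for Lipe the lengths are 9.66 and 5.89 kb. For G0s2 both are 0.871 kb. On the deposited FPKM scale G0s2 was the most abundant of the 8 in controls (276), ahead of Pnpla2 (196). Scaled to the exon union instead, with the same scaling to the library total, Pnpla2 came first at 453 ± 63.2 in controls (SD, n = 3). Mgll (284 ± 27.3), G0s2 (276 ± 31.2) and Lipe (258 ± 28.9) followed and did not differ beyond their spread. Aqp7 (89.5 ± 4.77), Pde3b (53.2 ± 6.15), Abhd5 (20.0 ± 2.24) and Hilpda (14.9 ± 5.04) were lower, and the last 2 overlapped. With Rb1 the levels on this scale were 636 ± 26.5 for Pnpla2, 330 ± 16.5 for Lipe, 321 ± 79.2 for Mgll and 217 ± 67.4 for G0s2 (SD, n = 3 each), of which Lipe and Mgll overlapped. The comparison of Rb1 with control for 1 gene is not touched by its length.

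The genes whose log2 values followed each member most closely over the 6 samples were taken, as a description, from 9391 protein-coding genes that averaged 10 CPM or more. With 6 samples and so many genes searched, correlations this high can arise by coincidence. No test was made of them. For Pnpla2 they were Ahcyl1, Supt6 and Opa1 (Pearson r 0.996, 0.995 and 0.993), for Lipe Dock1, Lmf2 and Ptch1 (0.991 to 0.990), and for Aqp7 Ngrn, Nrp1 and Hsd17b11 (0.990 to 0.987). For Pde3b they were Gnpat, Sqor and Exosc10 (0.992 to 0.990), for Mgll Bmp3, Rps6kb1 and Plxna4 (0.992 to 0.989), and for Abhd5 Utrn, Epb41l5 and Atg2b (0.987 to 0.981). For G0s2 they were Ciao2a, Rrp12 and Akirin2 (0.992 to 0.985) and for Hilpda Bcl10, Timeless and Cstb (0.992 to 0.989). None of the 8 genes was among the 3 closest to another, but a place among 3 of 9391 genes cannot show whether the 8 vary together.

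The rest of the pathway was followed in 6 lists with 81 genes. No gene of these lists passed in edgeR over all genes. Of the 13 genes of adrenergic and cyclic AMP input 10 had positive log2 fold changes, with a median of 0.10, and 51.3% of all genes tested were positive. Adrb3, the beta-3 adrenergic receptor that drives lipolysis in mouse fat, varied widely: 4.06, 13.3 and 7.22 FPKM in controls and 9.84, 32.2 and 19.9 with Rb1. The groups overlapped, since control replicate 2 lay above Rb1 replicate 1 (log2 fold change 1.39, SE 0.56, edgeR adjusted p = 0.424), and the value was 0.89 without Rb1 replicate 2. Without control replicate 2 it was 1.93, and DESeq2 then called it higher (adjusted p = 0.0149, against 0.387 with all samples). Of the exon bases of Adrb3, 24.8% are shared with Gm45470. Akap1, an anchor of protein kinase A (0.46), and Adcy6, an adenylyl cyclase (0.26), followed, and the alpha and beta catalytic subunits of protein kinase A lay near 0 (Prkaca 0.02, Prkacb 0.09).

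Among 15 genes of antilipolytic input 12 were positive (10 without control replicate 2), with a median of 0.09. Hcar1, the lactate receptor that restrains lipolysis, stood at 15.4, 23.2 and 21.3 FPKM in controls and at 39.2, 35.3 and 29.2 with Rb1. The groups were well apart (log2 fold change 0.82, SE 0.19, edgeR adjusted p = 0.210), and DESeq2 called Hcar1 higher (adjusted p = 0.00760), also without control replicate 2 (0.00670). Irs1, the insulin receptor substrate, stood at 6.14, 7.39 and 8.12 FPKM in controls and at 9.94, 11.8 and 10.1 with Rb1 (0.60, edgeR adjusted p = 0.261), and 30.9% of its exon bases are shared with Gm9747. Gnai1, an inhibitory G protein subunit, had a log2 fold change of 0.43. Of the 15, 0 passed in edgeR, and 5 had an unadjusted p under 0.05, all higher, against 4.01% of all genes (565 of 14093). Without control replicate 2 there were 3, all higher, against 373 of the 14093 genes on the higher side. The median was -0.042 with scaling to adipocyte markers.

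Of 15 other lipid hydrolases, 11 were positive, with a median of 0.11 (0.05 without control replicate 2), and the smallest p values belonged to genes that were lower. Lipa, the acid lipase of lysosomes, stood at 88.8, 74.9 and 62.2 FPKM in controls and at 49.0, 44.3 and 45.7 with Rb1. All Rb1 samples lay below the lowest control (log2 fold change -0.65, SE 0.13, edgeR adjusted p = 0.184, DESeq2 adjusted p = 0.000845). Daglb, a diglyceride lipase, was lower by the same rule of non-overlap, at 5.81, 5.09 and 4.88 FPKM in controls and 3.50, 3.87 and 3.10 with Rb1 (-0.55, edgeR adjusted p = 0.198, DESeq2 adjusted p = 0.0111, and 0.0889 without control replicate 2). Of its exon bases, 24.1% are shared with Rac1. Macrophages express Lipa at a high level, and all 10 macrophage markers had negative values with a median of -0.75; their part in the Lipa value was not tested. Lipg, an endothelial lipase, had a log2 fold change of 0.75 at levels of 0.537 to 1.31 FPKM, and Lpl, lipoprotein lipase, one of 0.00014.

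Among 9 tested lipid droplet proteins 5 were positive. Plin1, the perilipin that guards the droplet and binds CGI-58 at rest, stood at 225, 237 and 253 FPKM in controls and at 246, 306 and 312 with Rb1, with overlap (0.32, edgeR adjusted p = 0.527). Fitm2, a protein of droplet formation, was at 44.7, 45.5 and 50.8 FPKM in controls and at 62.1, 54.9 and 56.7 with Rb1 (0.34), and Bscl2, seipin, had a log2 fold change of -0.26. Of 13 tested genes of fatty acid and glycerol handling 6 were positive, with a median of -0.15 that was 0.05 without control replicate 2. Pck1, an enzyme of the path that supplies glycerol phosphate for re-esterification, stood at 95.7, 193 and 215 FPKM in controls and 206, 413 and 327 with Rb1 (0.95, edgeR adjusted p = 0.429). Aqp11, another aquaporin, had a log2 fold change of 0.58 at levels of 0.252 to 0.463 FPKM, and Slc27a1, a fatty acid transporter, had 0.51, which was 0.058 without Rb1 replicate 1.

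Regulators of lipase transcription gave no common direction, with 7 of 14 positive and a median of 0.02 that was below 0 without control replicate 1, control replicate 2, Rb1 replicate 1 (-0.015, -0.0056 and -0.014) or Rb1 replicate 2 (-0.086). Foxo1, which is known to activate Pnpla2, had a log2 fold change of 0.31 that was 0.17 without Rb1 replicate 2, and Pparg, the master regulator of the fat cell, one of -0.10. Tfeb, a regulator of lysosomal genes, was at 2.64, 2.61 and 2.20 FPKM in controls and 1.64, 1.86 and 1.39 with Rb1, without overlap (-0.56, edgeR adjusted p = 0.254), and its relative Tfe3 had -0.26. Hif1a, a factor that acts on Hilpda in low oxygen, had a log2 fold change of -0.18 (edgeR adjusted p = 0.693), with overlap between the groups.

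**Figure D4:**
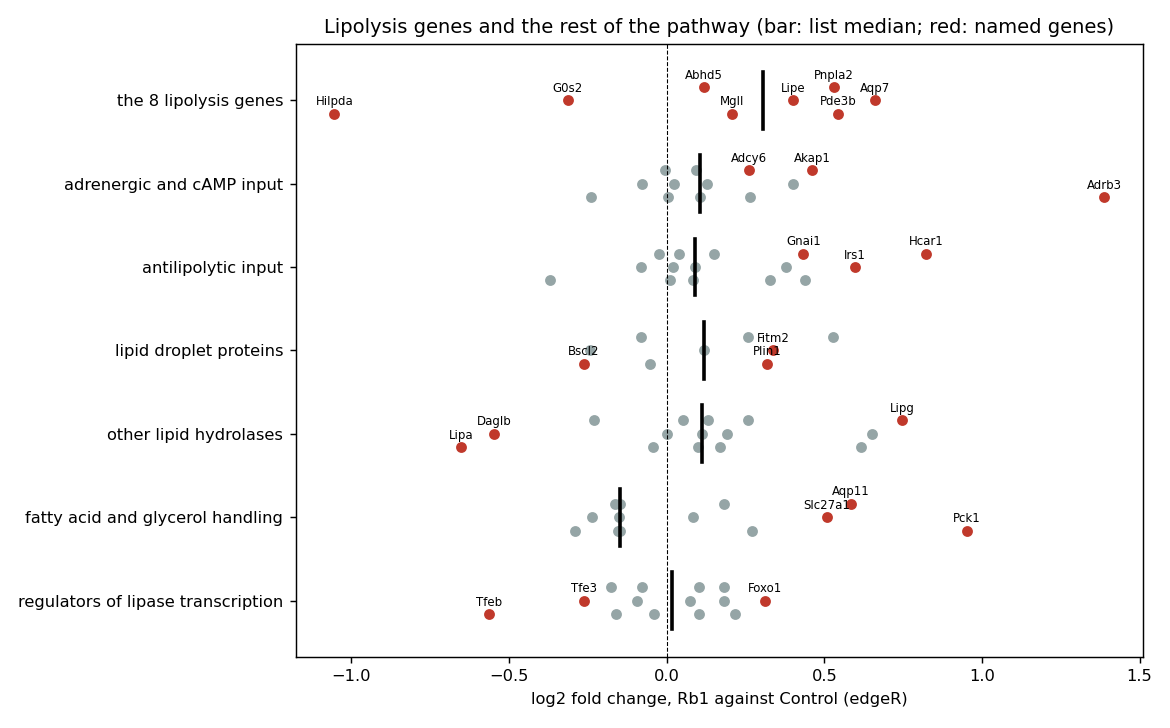
Log2 fold change of Rb1 against control (x axis, edgeR) for each tested gene of the 8 and of the 6 pathway lists; red points are the genes named by rule, grey points the others, and black bars the list medians. The median of the 8 genes lies at 0.30 and those of the lists between -0.15 and 0.12.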

How the data were processed

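Per the file headers, the deposited table holds raw read counts and FPKM values per Ensembl gene for 6 samples. Per the submitters' processing notes, CASAVA 1.8, TopHat2 2.0.6 and build mm10 were used; no counting tool, annotation, strand setting or filter is named in them. The deposited FPKM equalled the count over a gene length and the column total (checked on 13169 genes, largest spread of the length 0.00984%). Counts were used for tests and FPKM for levels and ratios; 5 ratios were compared by exact permutation. Symbols were paired for 21933 of 22040 identifiers, and coordinates came from GENCODE M21 on GRCm38.

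edgeR 4.0.16 in R 4.3.3 fitted Rb1 against control with TMM scaling, its default filter (minimum count 10, minimum total 15), no covariates and Benjamini-Hochberg adjustment over 14093 genes. SEs and 95% intervals came from the quasi-likelihood F statistic. DESeq2 1.42.0 and limma 3.58.1 (voom) were alternatives. DESeq2 gave no adjusted p for 101 of the 14093 genes. The fits were tested on simulated data, drawn with the dispersions that edgeR estimated from these counts. There DESeq2 made a larger share of false calls than edgeR (50 of 196 calls against 11 of 135). It also recovered more of the simulated 2-fold changes (55% against 34% in edgeR). The simulation was drawn once, with no library like control replicate 2. Its counts of calls were unlike those in these data (1 in edgeR and 390 in DESeq2). It therefore cannot show which DESeq2 calls here are false. Leave-one-out fits keep 2 samples in 1 group.

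The members and lists were chosen with earlier results of these data known. Genes named beside the 8 were the 3 of each list with the smallest p, Plin1 and Adrb3, and the 3 closest in pattern to each member. Prkaca, Prkacb, Lpl, Pparg and Hif1a were added after their values were seen. Nothing in the labels ties each sample to its own mouse; the p-values therefore reflect only how far these samples spread, possibly for technical reasons. Every pair of samples differed by more than counting noise (chi-square per degree of freedom at least 30.4).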

Additional observations from a re-analysis of the deposited data

How the results depend on the processing

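All 8 genes kept their direction under the 17 alternatives, except Abhd5, whose log2 fold change was -0.013 with scaling to adipocyte markers. This scaling takes the summed counts of the 11 markers as fixed, and Fabp4 had the most counts of them in every sample. Fabp4, Plin1, Cidec, Adrb3 and Pparg are also in the pathway lists. None of the 8 passed in any edgeR or limma-voom fit. DESeq2 took Aqp7 past the threshold (log2 fold change 0.66, adjusted p = 0.0164), also with no expression filter (0.66, adjusted p = 0.0156). It took Pnpla2 past it with no filter only (log2 fold change 0.53, adjusted p = 0.0484). These DESeq2 fits with no filter or without control replicate 2 were chosen after seeing the data. The count of genes past the threshold was 1 in edgeR, 2 with scaling to adipocyte markers, 390 in DESeq2, 377 in DESeq2 with no filter, 196 in DESeq2 without control replicate 2, and 1 to 4 in edgeR when 1 sample was left out; the cause was not tested. With scaling to adipocyte markers, list medians were 0.17 for the 8 genes, -0.038 for adrenergic input, -0.042 for antilipolytic input, -0.023 for other hydrolases and -0.29 for fatty acid and glycerol handling, beside -0.13 for all genes. Leaving out 1 sample gave 0.25 to 0.41 for the 8 genes, 0.089 to 0.16 for adrenergic input, 0.038 to 0.17 for antilipolytic input, 0.012 to 0.19 for lipid droplet proteins, -0.086 to 0.035 for regulators, 0.052 to 0.14 for other hydrolases and -0.22 to 0.072 for fatty acid and glycerol handling; the last 2 were 0.053 and 0.054 in DESeq2 without control replicate 2. The 5 ratios kept their direction without each sample. Same-numbered samples of the groups are not said to be paired, and their deviations correlated at -0.109 to 0.136, with 3 of 6 samples closest to their own number. With the replicate block 1 gene passed and the 8 genes had adjusted p between 0.312 and 0.774 (edgeR). With 3 samples in each group, the intervals of Mgll, Abhd5 and G0s2 include 0.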
